A study of Drosophila melanogaster with 13 samples.

Results

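In larval salivary glands of a SuUR mutant of Drosophila melanogaster, gamma-H2Av peaks were set against rabbit IgG peaks from glands of the wild-type strain OrR, to describe what damage signal was recovered in the mutant beyond the IgG background. The members are all peaks of the 2 deposited lists, 6712 of SuUR gamma-H2Av and 5684 of OrR IgG. Together they are 12396 of the 83082 peaks in 9 lists, from 2 of 13 samples. Both libraries came from salivary glands that were dissected by hand from wandering larvae of the third instar and pooled. The SuUR glands were precipitated with an anti gamma-H2Av antibody from Rockland, and the OrR glands with rabbit IgG from Abcam. An OrR gamma-H2Av library of 5175 peaks, made with the Rockland antibody, is given beside them where it helps to read a value.

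SuUR encodes a chromatin protein that slows replication forks in polytene cells, and without it late replicating and heterochromatic sequence that is normally underreplicated is copied more fully. Gamma-H2Av is H2Av, the fly's H2A variant, phosphorylated near its end, and marks chromatin around DNA breaks. IgG binds no particular chromatin protein, so its peaks record what the procedure itself recovers above input. In the Release 5 assembly (dm3), 2L, 2R, 3L, 3R and X are the major arms. Chromosome 4 is small and largely heterochromatic, and the Het scaffolds hold assembled heterochromatin near the centromeres and of the Y. U and Uextra hold sequence of unknown place, so peaks side by side there are neighbours in the listed coordinates only.

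The strains and the inputs differed between the lists: SuUR peaks were called against SuUR input, and IgG peaks against OrR input. No IgG library of SuUR glands was analysed here, and the SuUR allele is not named in the labels. Each group had 1 library and no replicate, so no test between libraries was possible and every difference is between 2 libraries. Strain, antibody and input cannot be told apart. Copy number in the glands was not analysed, and its part in the results was not tested. The genotype was taken from the label and was not checked. Depth after duplicate removal was 15996251 tags for SuUR gamma-H2Av and 16337826 for OrR IgG, a ratio of 0.979. The caller's fragment lengths were 110 bp for SuUR gamma-H2Av and 114 bp for OrR IgG. The OrR gamma-H2Av library is less closely matched, with 19208769 tags and a fragment length of 161 bp. Its peaks had a median length of 1042 bp over all sequences. How far this bears on comparisons with it was not tested.

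In the SuUR library the peaks lay mostly in heterochromatic and unplaced sequence and were sparse on the arms. The SuUR list covered 9.29 Mb, against 6.76 Mb in the IgG list, and its peaks held 5.25% of the tags, against 3.34% for IgG. On the major arms the order was the opposite: 205 SuUR peaks covered 1074.6 kb, against 519 IgG peaks covering 1913.3 kb, a ratio of 0.562. On chromosome 4 the SuUR peaks covered 89.2 kb, against 54.2 kb for IgG, a ratio of 1.65. Het scaffolds were covered over 1948.6 kb by SuUR peaks, against 1154.5 kb by IgG peaks, which is 21.1% against 12.5% of their length and a ratio of 1.69. On U the SuUR peaks covered 1651.7 kb, against 673.9 kb for IgG, and on Uextra they covered 4523.5 kb, against 2951.7 kb.

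The ratio on the arms depended on which peaks were kept. It stayed below 1 in the upper 50% of each list by score, at 0.679, and with equal numbers of peaks, at 0.507. With peaks of at least 5-fold enrichment over their own input it was 1.09, and on chromosome 4 that limit gave 2.79. An FDR of at most 5% gave 9.34 on the arms, 18.1 on the Het scaffolds, 18.1 on chromosome 4 and 32.7 on U and Uextra together. Those values say nothing about peak strength, because the limit could remove IgG peaks only: the highest FDR in the SuUR list was 1.27%, and the median in the IgG list was 8.43%. It kept all 6712 SuUR peaks and 230 IgG peaks.

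**Figure D1:**
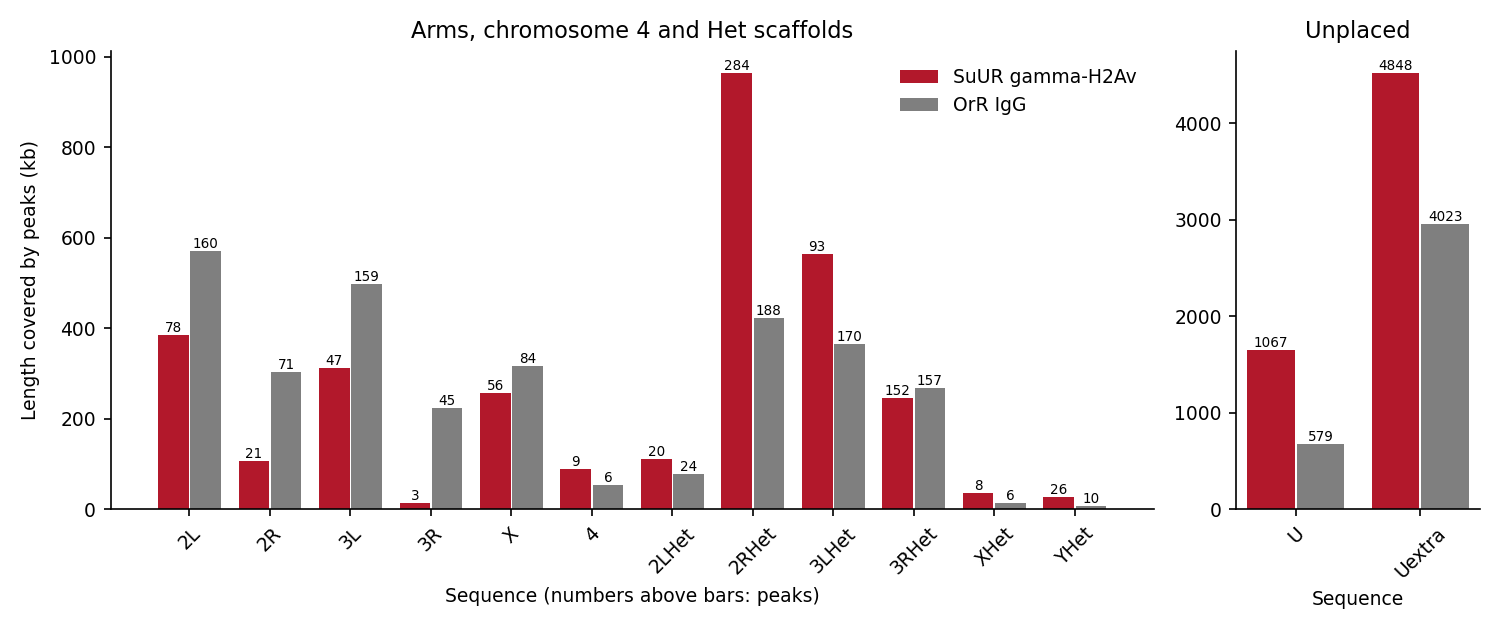
Length covered by peaks (kb) on each sequence, SuUR gamma-H2Av in red and OrR IgG in grey, with the number of peaks above each bar; unplaced sequence has its own axis. SuUR bars are lower than IgG bars on all 5 arms and on 3RHet, and higher on the other sequences drawn.

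Among the arms, 3R stood lowest in the SuUR list. It held 3 SuUR peaks covering 14.7 kb, against 45 IgG peaks covering 224.8 kb, a ratio of 0.0656. The 3 SuUR peaks on 3R were 5322, 6315 and 3101 bp long, with 665, 451 and 182 tags. On 2R, 21 SuUR peaks covered 106.3 kb, against 71 IgG peaks covering 303.0 kb. On X the 2 lists were closest, with 56 SuUR peaks over 256.2 kb, against 84 IgG peaks over 317.0 kb. On 2L, SuUR peaks covered 385.4 kb, against 570.7 kb for IgG, and on 3L they covered 312.0 kb, against 497.7 kb.

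The arm peaks of SuUR lay toward the centromeres. The 2 Mb next to the centromere of each arm, a distance chosen after the values were seen, make up 8.40% of the arm length. They held 119 of 205 SuUR peaks (58.0%, Wilson 95% interval 51.2 to 64.6%) and 227 of 519 IgG peaks (43.7%, 39.5 to 48.0%). Intervals here cover counting error over peaks only. Within those 2 Mb the covered lengths were nearly equal, 662.1 kb for SuUR gamma-H2Av and 661.6 kb for IgG. Beyond them SuUR peaks covered 412.5 kb, against 1251.7 kb for IgG, a ratio of 0.330. Summed over the arms, the lower SuUR coverage therefore lay beyond these 2 Mb. On 2L and 2R, SuUR coverage was lower within them as well.

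The arms differed in this respect. On 3L, 43 of 47 SuUR peaks lay in the proximal 2 Mb and covered 294.7 kb there, against 101 of 159 IgG peaks covering 232.4 kb. On X, 45 of 56 SuUR peaks were proximal and covered 205.7 kb, against 40 of 84 IgG peaks covering 123.4 kb. On 2L and 2R the proximal coverage was lower in SuUR than in IgG, at 105.7 kb against 153.5 kb on 2L and 56.0 kb against 152.3 kb on 2R. No SuUR peak and no IgG peak lay in the proximal 2 Mb of 3R, and 2 OrR gamma-H2Av peaks did.

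One distal stretch of 2L was an exception to the low distal coverage. SuUR peaks of 2L were joined where the gaps between them were at most 1 Mb. The cluster with the most peaks, singled out after its values were seen, lay at 15365766 to 18039736. It held 50 of the 78 SuUR peaks of the arm and covered 238.9 kb. In the same stretch 178 of the 273 OrR gamma-H2Av peaks of 2L covered 415.7 kb, and 57 of the 160 IgG peaks covered 126.9 kb. The stretch held 64.1% of the SuUR peaks, 65.2% of the OrR gamma-H2Av peaks and 35.6% of the IgG peaks on 2L. Its bounds were set by the SuUR peaks. Of the other SuUR peaks on 2L, 22 lay in the proximal 2 Mb.

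On chromosome 4 the SuUR signal was concentrated in a few long peaks. The longest SuUR peak of the whole list lay there, at 1241745 to 1279084, with 37340 bp and 12890 tags, or 805.8 counts per 1000000 tags of the library (CPM). Its neighbour at 1222236 to 1238884 held 4057 tags over 16649 bp. These 2 peaks formed a run of 56.8 kb in which neither OrR IgG nor OrR gamma-H2Av had a peak. Further SuUR peaks without an IgG peak lay at 1150877 to 1166122 with 4423 tags, at 76292 to 83950 with 2283 tags and at 448782 to 449842 with 236 tags. The remaining 3 such peaks lay between 3260 and 7197 and held 83, 48 and 45 tags.

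One locus of chromosome 4 was shared and nearly equal in CPM in the 2 lists. The SuUR peak at 615699 to 623444 held 80.9 CPM, and the IgG peak at 615595 to 623481 held 79.9. CPM is not net of input. The fold was 2.22 over SuUR input for the SuUR peak and 3.25 over OrR input for the IgG peak. The other 5 IgG peaks of chromosome 4 lay between 23909 and 362972, in places with no SuUR peak. The largest of them, at 342429 to 362137, was 19709 bp long, held 3759 tags and was the longest peak of the IgG list. Summed over peaks, chromosome 4 held 1585.3 CPM in SuUR and 652.5 CPM in IgG, a ratio of 2.43.

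Among the Het scaffolds the difference was not uniform. On 2RHet, 284 SuUR peaks covered 964.9 kb, against 188 IgG peaks covering 421.7 kb, a ratio of 2.29. On 3LHet the SuUR list had fewer peaks but more coverage, with 93 peaks over 564.0 kb, against 170 IgG peaks over 365.5 kb. The SuUR peaks there had a median length of 3645 bp, against 1234 bp for IgG. 2LHet had 110.2 kb in SuUR, against 77.3 kb in IgG, and XHet had 35.4 kb, against 14.5 kb. The highest ratio was 3.79 on YHet, where 26 SuUR peaks covered 27.7 kb, against 10 IgG peaks covering 7.32 kb. On 3RHet the SuUR peaks covered 246.3 kb, against 268.2 kb for IgG, a ratio of 0.918.

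Outside Uextra, the widest run of SuUR peaks also lay on a Het scaffold. With peaks no more than 5 kb apart joined, 27 SuUR peaks on 2RHet formed a run of 107.1 kb, at 1883195 to 1990317. The widest IgG run on any Het scaffold was 31.0 kb, at 1349821 to 1380860 on 2RHet. The second longest SuUR peak, 36330 bp at 1554066 to 1590395 on 3LHet, held 6299 tags, or 393.8 CPM. It overlapped 6 IgG peaks over 56.0% of its length, which together held 125.5 CPM. The longest peak of 2RHet, 29459 bp at 1724054 to 1753512, overlapped 5 IgG peaks over 11.4% of its length. It held 209.5 CPM in SuUR, and those IgG peaks, over 3.362 kb, held 8.57 CPM. Per kb of peak, the ratio of SuUR to IgG at this locus was 2.79. At both places IgG tags outside the IgG peaks are not counted.

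Unplaced sequence held 5915 of the 6712 SuUR peaks (88.1%), against 4602 of the 5684 IgG peaks (81.0%). U gave a ratio of covered length of 2.45 and Uextra one of 1.53. One IgG peak on U stood apart, with 17497 tags at 5288189 to 5303692, or 26.7% of all tags in IgG peaks on U. No SuUR peak overlapped it, and an OrR gamma-H2Av peak did. The SuUR peak on U with the most tags held 3579 tags at 1074556 to 1094480, or 2.56% of the tags in SuUR peaks on U. How reads that match several places were treated is not given in the sources used here, which limits values on Het scaffolds, U and Uextra.

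SuUR peaks were longer than IgG peaks in most classes of sequence and slightly denser in tags. On the arms the median length was 4352 bp in SuUR, against 2795 bp in IgG. Het scaffolds had a median of 1843 bp in SuUR and 1105 bp in IgG, U had 1005 and 734 bp, and Uextra had 811 and 707 bp. Chromosome 4 was the exception in length, with 7659 bp in SuUR and 8683 bp in IgG. Over all sequences the median was 854 bp in SuUR and 753 bp in IgG. The median tag number per peak was 288 in SuUR and 170 in IgG on the arms, 1294 and 1642 on chromosome 4, and 95 and 53 on the Het scaffolds. On U it was 53 in SuUR and 36 in IgG, and on Uextra 57 and 46. Scaled to depth, the median over all peaks was 3.75 CPM in SuUR and 2.94 CPM in IgG, a ratio of 1.28. That ratio turned to 0.479 with an FDR of at most 5%, which left 230 IgG peaks against the whole SuUR list.

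By class medians, tag density, the CPM of a peak per kb of its length, separated the lists less than length did. The median density was 4.11 in SuUR and 3.43 in IgG on the arms, 3.25 and 2.89 on the Het scaffolds, 3.12 and 2.88 on U, and 4.26 and 3.88 on Uextra. Of the nuclear classes chromosome 4 had the densest peaks, at 13.9 in SuUR and 13.0 in IgG. Most peaks of both lists were less dense than the average of their own library over the 168.7 Mb of listed sequence, which is 5.93. SuUR had 1409 of 6712 peaks above that average (21.0%), and IgG had 923 of 5684 (16.2%). On the arms 38 of 205 SuUR peaks and 49 of 519 IgG peaks were above it, and on the Het scaffolds 50 of 583 and 29 of 555. All but 3 of the 9 SuUR peaks on chromosome 4 were above it, and so were all 6 IgG peaks. With only such dense peaks, the ratio of covered length was 3.15 on the Het scaffolds and 0.900 on the arms.

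**Figure D2:**
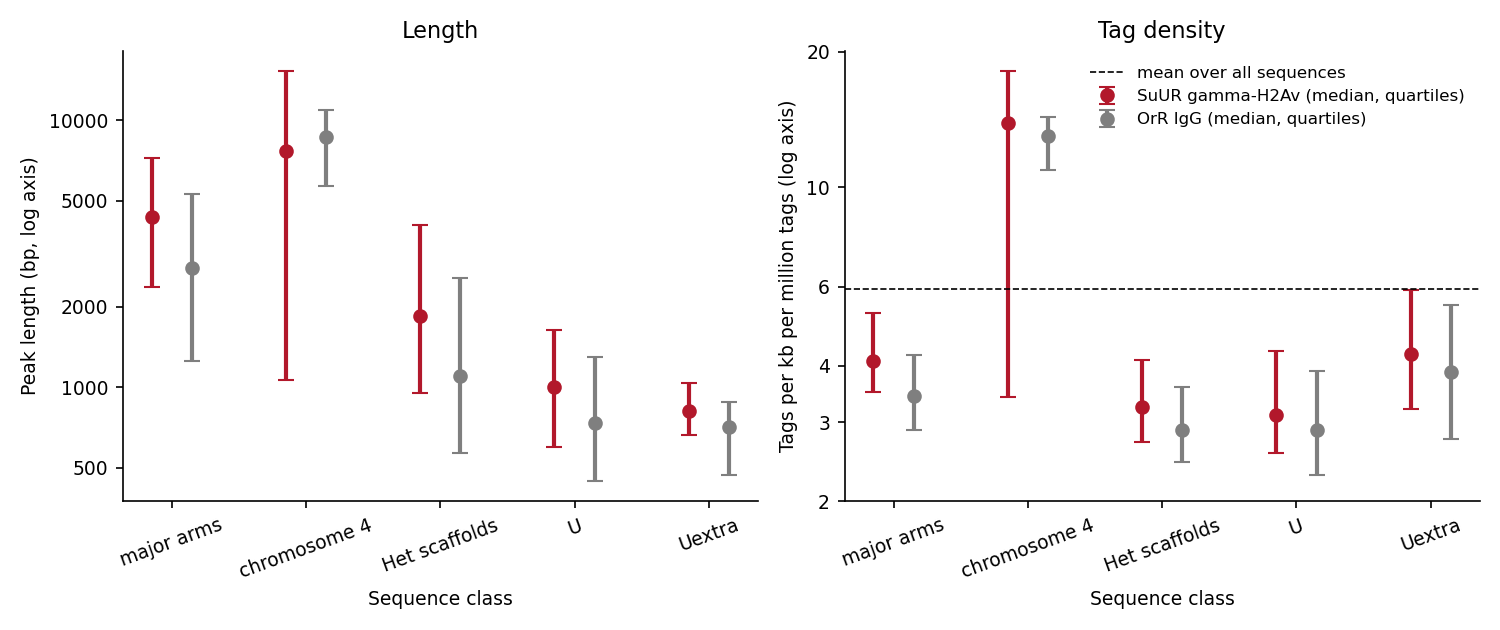
Median (point) and quartiles (bars) of peak length in bp and of tag density in CPM per kb, by class of sequence, SuUR gamma-H2Av in red and OrR IgG in grey; both axes are logarithmic. Median densities lie below the dashed library mean of 5.93 in every class but chromosome 4, in both lists.

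The SuUR peaks that overlapped an IgG peak by 1 bp or more were 2365 of 6712 (35.2%, Wilson 95% interval 34.1 to 36.4%), which left 4347 (64.8%) outside the IgG list. The share inside IgG was 28.8% on the arms (59 of 205, interval 23.0 to 35.3%), 30.5% on the Het scaffolds (178 of 583, 26.9 to 34.4%) and 25.02% on U (267 of 1067, 22.5 to 27.7%). Uextra had the highest share, 38.4% (1860 of 4848, 37.0 to 39.7%). On chromosome 4 it was 1 of 9 peaks (11.1%, 1.99 to 43.5%). For comparison, the share of OrR gamma-H2Av peaks outside IgG was 47.6%, with both of those lists called against 1 input.

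Seen from the IgG list, 2523 of 5684 peaks (44.4%, 43.1 to 45.7%) overlapped a SuUR peak, and 55.6% did not. On the arms that share was 15.03% (78 of 519, 12.2 to 18.4%), against 45.4% on the Het scaffolds, 51.1% on U and 47.1% on Uextra. Shared sequence came to 2102.6 kb, which is 22.6% of the SuUR covered length and 31.1% of the IgG covered length. SuUR peaks alone covered 7185 kb, and IgG peaks alone covered 4660.5 kb. On the arms SuUR peaks alone covered 909.3 kb and IgG peaks alone 1747.9 kb. The order was the opposite on the Het scaffolds, with 1601.4 kb for SuUR alone and 807.3 kb for IgG alone.

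**Figure D3:**
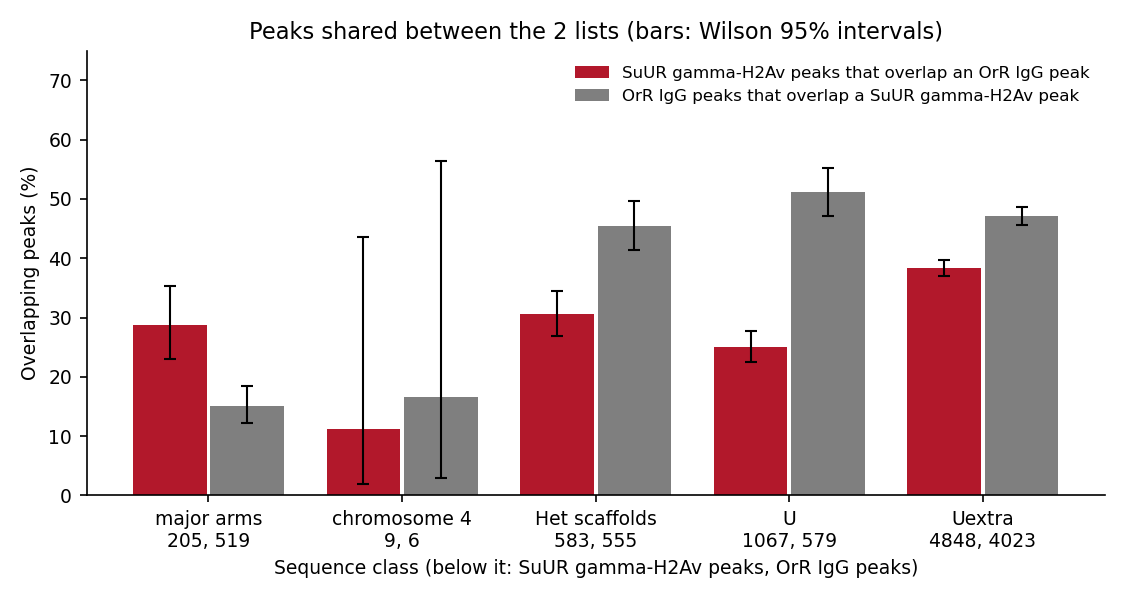
Share of SuUR gamma-H2Av peaks that overlap an OrR IgG peak (red) and of OrR IgG peaks that overlap a SuUR gamma-H2Av peak (grey), in percent, with Wilson 95% intervals and the number of peaks below each class. The red share is the higher one on the arms (28.8% against 15.03%) and the lower one in the other classes, with wide intervals on chromosome 4.

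The SuUR peaks outside IgG and those inside it differed in what else they met. Of the 4347 SuUR peaks outside IgG, 1223 (28.1%, 26.8 to 29.5%) overlapped an OrR gamma-H2Av peak. Of the 2365 inside IgG, 1637 did (69.2%, 67.3 to 71.1%). On chromosome 4 none of the 9 SuUR peaks overlapped an OrR gamma-H2Av peak. The peaks outside IgG had a median of 53 tags, a density of 3.56 and a fold of 6.33 over SuUR input, against 74 tags, a density of 4.62 and a fold of 5.93 for those inside. On chromosome 4 the median density was higher outside, at 14.6 over 8 peaks, against 10.4 for the 1 peak inside. On the Het scaffolds the median length was 1353 bp outside IgG and 3361.5 bp inside it. Longer peaks have more room to meet a peak of another list, and this was not corrected for. The OrR gamma-H2Av and OrR IgG lists also share strain and input, and 52.4% of OrR gamma-H2Av peaks overlapped an IgG peak. How far that bears on the shares of 28.1% and 69.2% was not tested.

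Where the lists shared a place, SuUR peaks were mostly longer and denser. Overlapping peaks were joined into 2287 shared loci. CPM at a locus is summed over each list's own peaks, which differ in length, and tags outside them are not counted. The density of SuUR over IgG had a median ratio of 1.25 over all loci, with quartiles of 0.919 and 1.65. The median ratio of length over all loci was 1.18. On the arms 55 of 58 shared loci were denser in SuUR, and the median ratio of CPM was 2.85. On the Het scaffolds 138 of 160 shared loci were longer in SuUR, with a median length ratio of 2.38 and a median ratio of CPM of 3.52. The ratio of CPM was lower on U, at 1.97 over 258 loci, and on Uextra, at 1.41 over 1810 loci. The shared locus with the most SuUR tags outside Uextra lay at 1539115 to 1590395 on 3LHet, with 490.5 CPM over 51.3 kb of peaks in SuUR and 125.5 CPM over 28.8 kb in IgG, a density ratio of 2.195. On U the locus at 3430469 to 3449837 held 187.9 CPM in SuUR and 43.0 CPM in IgG, but its density ratio was 0.783.

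Across windows of 100 kb, SuUR coverage exceeded IgG coverage by at least 20 percentage points in 46 of 1696 windows (2.71%). IgG exceeded SuUR by that margin in 17 windows (1.0%). The Het scaffolds had 21 of 96 windows rich in SuUR (21.9%), against 3 rich in IgG (3.12%), and U had 11 of 101 (10.9%), against 0 (0%). On the arms the numbers were equal, 11 windows each of 1194 (0.921%). Chromosome 4 had 1 window of 14 in each direction (7.14%), and Uextra had 2 windows of 291 in each (0.687%). 2RHet held 12 of the SuUR windows, 3LHet held 8 and 2LHet held 1, and 3RHet, XHet and YHet held none. OrR gamma-H2Av passed the limit over IgG in 44 of the 1696 windows, 34 of them on the arms and 8 on the Het scaffolds. Of these 44, 5 were among the 46 SuUR windows, 4 on the Het scaffolds and 1 on the arms.

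Some windows lay close to the limit. Just inside it, SuUR exceeded IgG by 20.4 points on U at 6100001 to 6200000 and by 20.9 points on X at 22200001 to 22300000. Just outside it, the difference was 19.9 points on 2RHet at 2100001 to 2200000 and 19.3 points on U at 2000001 to 2100000. Smaller differences were common in unplaced sequence: SuUR coverage was above IgG coverage in 250 of 291 Uextra windows and in 89 of 101 U windows. On the arms 55 windows had more SuUR coverage and 162 more IgG coverage.

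**Figure D4:**
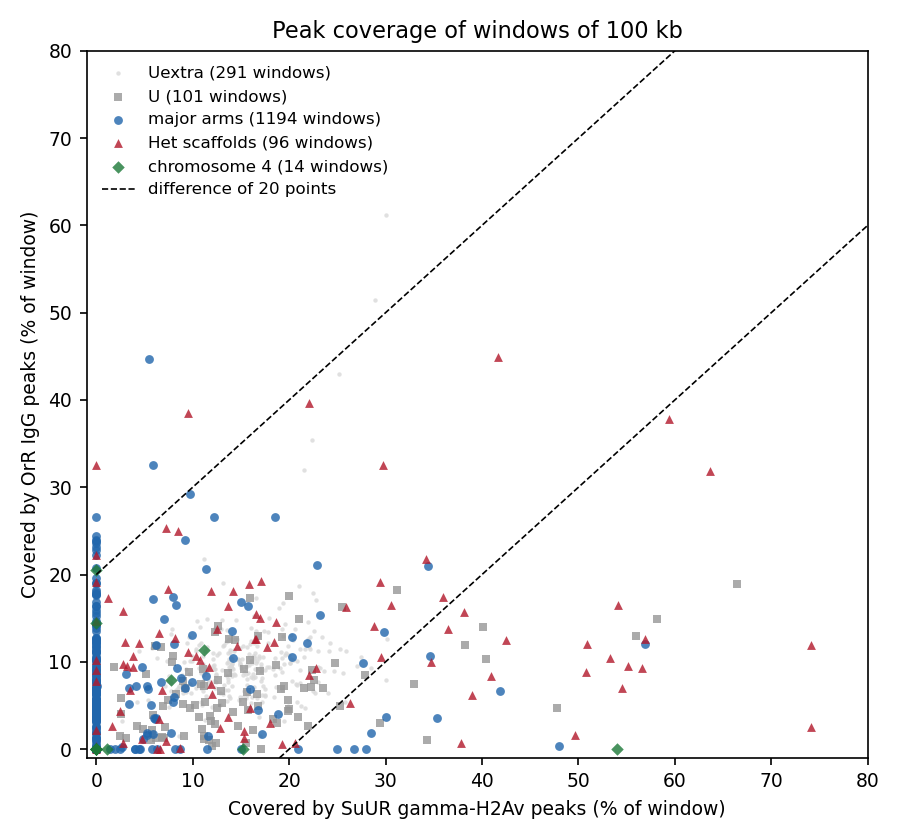
Each point is a window of 100 kb, with the percent covered by SuUR gamma-H2Av peaks on the horizontal axis and by OrR IgG peaks on the vertical axis, by class of sequence; dashed lines mark a difference of 20 points. The 21 Het windows below the lower line reach SuUR coverage that few arm windows reach, and many arm windows lie on the vertical axis with IgG peaks and no SuUR peak.

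Adjacent rich windows made 26 SuUR domains, with 2003.4 kb under SuUR peaks and 400.4 kb under IgG peaks. Domains were chosen by this difference, so their values are a description. The 8 domains on Het scaffolds held 1048.8 kb of SuUR peaks, against 244.5 kb of IgG peaks, and the 7 on the arms held 375.7 kb, against 38.7 kb. The domain of largest difference, at 1600001 to 2100000 on 2RHet, had 306.6 kb under 87 SuUR peaks, 129.8 kb under 44 OrR gamma-H2Av peaks and 59.5 kb under 36 IgG peaks. A second 2RHet domain, at 700001 to 1100000, had 210.9 kb in SuUR, 77.0 kb in OrR gamma-H2Av and 46.9 kb in IgG. The third, at 1700001 to 2100000 on 3LHet, had 197.6 kb in SuUR, 82.8 kb in OrR gamma-H2Av and 37.1 kb in IgG. In these 3 domains OrR gamma-H2Av lay between SuUR gamma-H2Av and IgG.

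Of the other Het domains, 800001 to 1100000 on 3LHet had 121.7 kb under 10 SuUR peaks, against 20.7 kb under 24 IgG peaks. That is few, long peaks in SuUR and many short ones in IgG. The domain at 2200001 to 2400000 on 2RHet had 73.6 kb in SuUR and 16.1 kb in IgG. On U, the first 300000 bases had 120.3 kb in SuUR and 17.6 kb in IgG. The U domain at 1000001 to 1200000 had 124.6 kb in SuUR, 14.7 kb in OrR gamma-H2Av and 33.7 kb in IgG, so here OrR gamma-H2Av was below IgG.

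On the arms, the domain at 24300001 to 24600000 on 3L, at the proximal end of the arm, had 126.8 kb in SuUR, 74.6 kb in OrR gamma-H2Av and 26.3 kb in IgG. The domain at 17700001 to 17900000 on 2L, outside the proximal 2 Mb, had 89.9 kb in SuUR, 20.04 kb in OrR gamma-H2Av and 7.001 kb in IgG. It held 335.6 CPM in SuUR peaks and 31.6 CPM in IgG peaks. Chromosome 4 gave the domain at 1200001 to 1300000, with 54.0 kb and 1059.4 CPM in SuUR and no peak in OrR gamma-H2Av or in IgG.

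**Figure D5:**
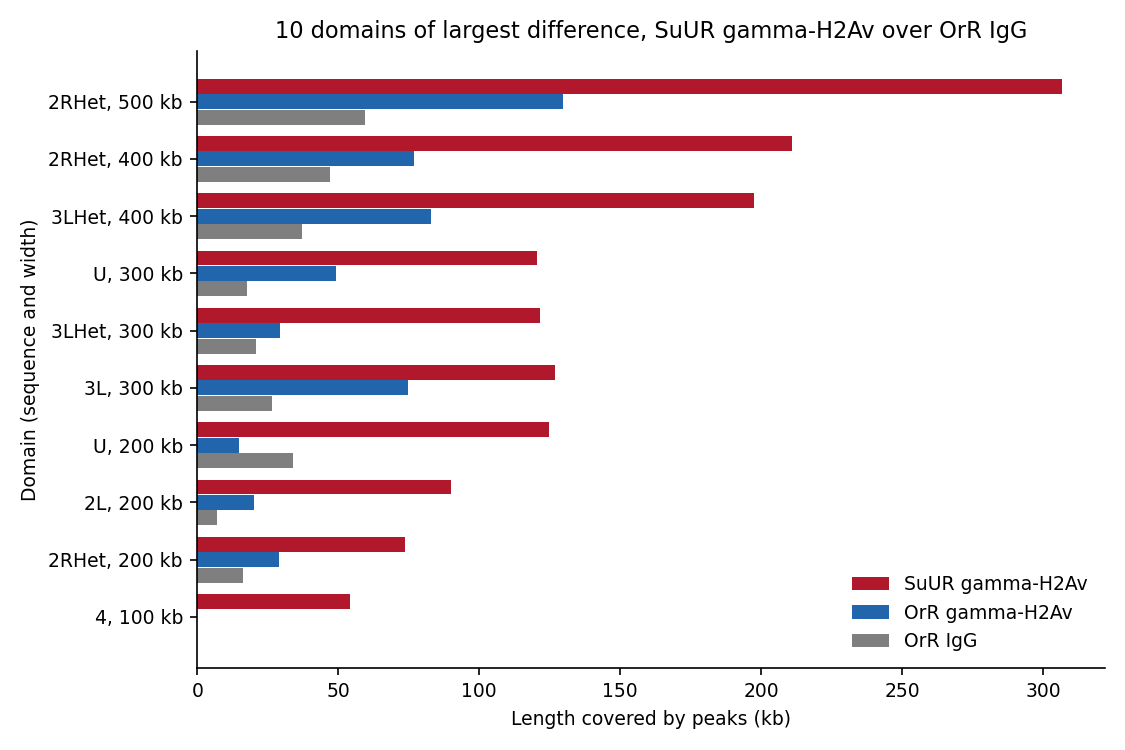
Length covered by peaks (kb) in the 10 domains of largest difference between SuUR gamma-H2Av and OrR IgG, from the largest at the top, with SuUR gamma-H2Av in red, OrR gamma-H2Av in blue and OrR IgG in grey. OrR gamma-H2Av lies between the other lists in all domains drawn but the 200 kb domain on U, where it is below IgG, and the 100 kb domain on chromosome 4, where neither OrR list has a peak.

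Of the domains rich in IgG, the one with the largest difference in kb spanned 2 windows of Uextra, a sequence with more SuUR than IgG coverage as a whole. At 28800001 to 29000000 there, SuUR peaks covered 58.9 kb and IgG peaks 112.6 kb, and OrR gamma-H2Av peaks covered 124.9 kb. Around it ran the widest IgG run of peaks no more than 5 kb apart, 485.9 kb with 362 peaks. The widest SuUR run on Uextra was 152.6 kb with 70 peaks. Runs, windows and domains on U and Uextra are stretches of listed coordinates, not known to be continuous on a chromosome. SuUR had no peak at 13900001 to 14100000 on 2L, where IgG covered 45.1 kb and OrR gamma-H2Av 13.1 kb. The single window with the largest IgG excess, at 23500001 to 23600000 on 3L, had 5.44 kb in SuUR and 44.7 kb in IgG. On 3LHet, SuUR had no peak at 600001 to 700000, where IgG covered 32.5 kb, and had 9.52 kb at 1200001 to 1300000, against 38.5 kb for IgG. Thus 3LHet held domains of both directions.

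The SuUR peaks with the most tags outside IgG were near the centromeres on the arms. On 3L the peak at 24525184 to 24535383 held 2391 tags over 10200 bp and also had the highest fold enrichment among them, 12.6 over SuUR input. Fold, score and FDR are the authors' own and rank peaks within a list only. On X the peaks at 21837899 to 21848969 and at 21469334 to 21481602 held 2126 and 1929 tags. On 2R the peak at 428495 to 442752 held 1848 tags, and on 2L the peak at 22468204 to 22482794 held 1690 tags. These ranks are by tags, which are not net of input. The FDR was 0% for the 3L peak and 0.17% and 0.24% for the X peaks. For the 2R and 2L peaks it was 1.03% and 1.01%, above the list median of 0.97%. None of these 5 arm peaks overlapped an OrR gamma-H2Av peak. Of all 146 SuUR arm peaks outside IgG, 43 did (29.45%). High fold without many tags was seen on 2R at 2249305 to 2249555, with 9 tags and a fold of 12.3, and on 2L at 22787309 to 22788203, with 50 tags and a fold of 10.3.

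On the Het scaffolds, the SuUR peak with the most tags outside IgG lay on 3RHet at 1517122 to 1525349, with 4116 tags and a density of 31.3, although that scaffold as a whole had less coverage in SuUR than in IgG. The next lay on 2LHet at 23534 to 40563 with 3423 tags, on 3LHet at 1394957 to 1416406 with 2606 tags and at 2227569 to 2238977 with 1854 tags, and on 2RHet at 3195481 to 3204408 with 1706 tags. Many tags did not mean a strong call. The FDR was 1.11% for the 3RHet peak and 1.25% for the 3LHet peak of 2606 tags. The highest FDR in the list was 1.27%. It was 0% for the 2LHet peak and the other 3LHet peak, and 0.26% for the 2RHet peak. Of these 5 peaks, the one on 2LHet also overlapped an OrR gamma-H2Av peak. Of all 405 SuUR peaks outside IgG on the Het scaffolds, 123 did (30.4%). The 3 Het peaks of highest fold, between 15.5 and 18.8 on YHet, 2RHet and 3RHet, held 27, 28 and 22 tags.

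All 5 such peaks in unplaced sequence lay on U. They held 3372 tags at 1176209 to 1197868, 2767 at 133149 to 159605, 2285 at 7220661 to 7223716, 2273 at 5684692 to 5689336 and 1964 at 6902803 to 6905891. The last 3 were short, from 3056 to 4645 bp, and dense, with 46.7, 30.6 and 39.8 CPM per kb. In the order given, the FDR of the 5 peaks was 0%, 0.98%, 0%, 0.78% and 0%. The highest folds outside IgG were on Uextra, from 23.8 to 26.6, in peaks of 270 to 628 bp with 81, 18 and 45 tags.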

How the data were processed

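Per the submitters' processing notes, the tools included BWA and the build was dm3 (Release 5). The authors called peaks per library with MACS 1.4.2, per the file headers, at a p-value cutoff of 1e-05 and an assumed genome size of 2.7e+09. That size is far above the 168.7 Mb of sequence listed here and lowers the genome-wide background the caller assumes, alike in both lists. The deposited lists give each peak's start, end and length, a count of tags, a score derived from the p-value, a fold enrichment ratio over input and an FDR in percent, per the file headers. Tag counts are of the ChIP library and are not net of input.

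Computed here with Python 3.11.15, numpy 2.4.6 and pandas 2.3.3 were covered lengths, overlaps of at least 1 bp, Wilson 95% intervals, and coverage in windows of 100 kb with a limit of 20 points. Counts per 1000000 tags (CPM) use the depth after duplicate removal. The functions were checked on simulated intervals. Sequence lengths are the last peak end over the lists. Regions named are the 10 domains of largest difference and the 5 domains of largest difference toward IgG. In each class they also include the 5 SuUR peaks with most tags outside IgG and the 3 of highest fold. Other regions, such as the longest peaks and runs and the shared loci, were chosen after their values were seen. The groups, lists and comparisons were chosen with earlier results of these data known. Inputs were not analysed here, and peaks were not placed in genes because the gene table used is of Release 6.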

Additional observations from a re-analysis of the deposited data

How the results depend on the processing

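With 1 library per group, no replicate could be left out, and precision is limited to counting error over peaks. No paired analysis was possible because each group has 1 library and no replicate number. A ratio or a count was taken as kept within 1.5 times its value, and a share within its Wilson interval. A ratio that crossed 1 was counted as turned, however small the change. Of 61 alternatives, 34 kept the value, 22 moved it and 5 turned its direction. Of these 5, 2 were of the ratio within the proximal 2 Mb, which was 1.001 to begin with. The 61 include the other proximal distances, which were added after the data were seen. The ratio of median peak length, 1.13, ranged from 1.05 with the FDR limit to 1.56 on the arms alone over its 7 alternatives. It was 1.08 without Uextra. All 7 count as kept, but the margin of 1.5 times is wider than the difference itself. The ratio of covered length on the arms, 0.562, was 0.679 in the upper 50% by score, 0.507 with equal numbers of peaks, 1.09 for peaks of at least 5-fold enrichment, 9.34 for an FDR of at most 5% and 0.900 for peaks denser than the library mean. On the Het scaffolds 1.69 was 18.1 with the FDR limit and 3.15 with dense peaks, on U and Uextra 1.70 was 32.7 with the FDR limit, and on chromosome 4 1.65 was 2.79 with the fold limit and 18.1 with the FDR limit. The ratio of median CPM per peak, 1.28, was 0.479 with the FDR limit. That limit kept 230 of 5684 IgG peaks and all SuUR peaks by its own construction, as all SuUR FDR values were at most 1.27%.

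The share of SuUR peaks inside IgG, 35.2%, was 23.4% in the upper 50% of each list by score, 36.4% with equal numbers of peaks, 29.2% with the fold limit, 3.13% with the FDR limit and 20.3% with dense peaks. It was 27.1% without Uextra, 28.8% on the arms alone, 33.8% with an overlap of 50% of the shorter peak, 28.5% for summits inside an IgG peak and 38.1% with egg chamber IgG peaks added. The count of 46 rich windows was 120 with the FDR limit, 13 with dense peaks, 124 in windows of 50 kb, 20 in windows of 200 kb, 155 at a limit of 10 points and 16 at 40 points. Within the proximal 2 Mb of the arms the ratio was 1.001. It was 1.28 within 1 Mb, 0.946 within 3 Mb and 0.880 within 5 Mb. Beyond those distances the ratio stayed between 0.314 and 0.342. Dense peaks and these distances were added after the data were seen. Except for the FDR limit, the cause of these changes was not tested.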

Other observations

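A regular array of peaks lay on XHet, picked out after its values were seen. It held 6 SuUR gamma-H2Av peaks of 5306 to 5348 bp, spaced 5844 to 5932 bp from start to start, with 34.7 to 37.1 CPM each. All 6 overlapped an OrR gamma-H2Av peak, and 4 overlapped no IgG peak. Over the whole SuUR list, 2860 of 6712 peaks (42.6%) overlapped an OrR gamma-H2Av peak, and 4347 (64.8%) overlapped no IgG peak. IgG had 2 shorter peaks in the array, of 2766 and 2843 bp, with 9.67 and 9.92 CPM (counts per 1000000 tags).

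The mitochondrial sequence held no SuUR gamma-H2Av peak. OrR IgG had 2 peaks there, one of 15164 bp with 18634 tags, or 1140.5 CPM, and one of 387 bp with 17 tags. OrR gamma-H2Av had 1 peak of 736 bp with 21 tags. The IgG peak on U at 5288189 to 5303692 was of like length, 15504 bp, and held 17497 tags.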
